A study of Homo sapiens with 5 samples.

Results

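The interleukin-6 (IL-6) family genes described here are 4 cytokines (IL6, LIF, IL11 and CLCF1), 4 receptor chains (IL6R, IL6ST, LIFR and OSMR), the transcription factor STAT3 and its feedback inhibitor SOCS3. Each was found by the Ensembl ID of its current symbol, which gave 10 of the 19936 genes listed in every library. The study sequenced RNA of LX-2 cells, an immortalised human line derived from hepatic stellate cells, the liver cells that lay down scar matrix. Cells received small interfering RNA (siRNA) against LIX1L, which codes for a predicted RNA-binding protein (siLIX1L, 3 libraries), or control siRNA (2 libraries). All were harvested 48 h after transfection, and the series title links LIX1L to the mRNA of the chemokine CCL20 and to fibrosis. The labels do not give the siRNA sequences, all libraries come from 1 cell line, and nothing states that the replicates were separate cultures. The p-values therefore measure the spread between these libraries only, which may be technical.

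Cytokines of the IL-6 family bind a ligand-specific receptor chain and then recruit gp130, the shared signalling chain encoded by IL6ST. LIF and CLCF1 signal through gp130 together with LIFR, oncostatin M can use OSMR in place of LIFR, and IL-6 and IL-11 use gp130 pairs. The receptors activate Janus kinases, which phosphorylate STAT3, and STAT3 induces SOCS3, which blocks the kinases on gp130. In the liver, IL-6 is known for the acute phase response of hepatocytes, and stellate cells are among the sources of IL-6 and IL-11.

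Depth was 14856104 to 17811940 reads in the siLIX1L libraries and 14877647 and 18294056 reads in the controls. Levels are RPM, reads per 1000000 reads counted over genes, and log2 fold changes are siLIX1L minus control on log2(RPM + 0.5), a scale that understates changes of low genes. LIX1L itself was at 6.60, 7.08 and 3.65 RPM in siLIX1L 1, 2 and 3 and at 26.4 and 35.5 RPM in control 1 and 2, with a log2 fold change of -2.36 (SE 0.33, limma adjusted p = 0.0383; 0.0528 without control 2). In every fit without a control, 1 control library remains, so the spread comes from the siLIX1L libraries alone and the lone control is assumed to vary like them. CCL20 was at 4, 5 and 1 reads in siLIX1L 1, 2 and 3, against 74 and 56 reads in control 1 and 2, and since it reached the minimum of the test through the controls only, its values are given as a description. The stellate cell markers summed to 4853 to 5701 RPM in siLIX1L and to 3377 and 8268 RPM in control libraries, most of it COL1A1, with 9 of 12 above the minimum level of the test. ACTA2, the smooth muscle actin of activated stellate cells, fell to 8.89, 8.41 and 14.8 RPM in siLIX1L 1, 2 and 3, against 39.0 and 35.4 RPM in control 1 and 2 (log2 fold change -1.79, limma adjusted p = 0.0471). COL1A2, a collagen chain, was at 61.5, 61.2 and 37.1 RPM in siLIX1L 1, 2 and 3 and 101 and 134 RPM in control 1 and 2 (-1.16, limma adjusted p = 0.0780). COL1A1 and COL3A1, also collagen chains, had log2 fold changes of 0.16 (limma adjusted p = 0.838) and 0.01 (0.995), with overlapping groups. The remaining tested stellate markers had negative fold changes, and only ACTA2 passed the threshold. These 4 genes are named after their values were seen, and their part in the lower IL6 was not tested. Among the defining markers LRAT was at 0 reads in all 5 libraries and GFAP stayed below 1 RPM. Of the hepatocyte markers TTR and APOB were at 0 reads in all 5 libraries. The control libraries differed more from each other than the siLIX1L libraries did, with a median absolute log2 difference over all tested genes of 0.44 between the controls, against 0.12 between siLIX1L 1 and 2 and 0.24 between siLIX1L 3 and their mean.

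IL6 stood lower in every siLIX1L library than in either control, by the widest margin among the 10 genes. LIF, IL11 and CLCF1 also averaged lower in siLIX1L libraries, but by amounts within or near the spread of the controls. The receptor chains, STAT3 and SOCS3 had log2 fold changes between -0.49 and 0.28, each with a 95% interval that spans 0. None of the 10 genes passed the limma threshold of 0.05 on p-values adjusted over 13096 genes, of which 0.916% passed. At an unadjusted p under 0.05 were 2 of the 10, IL6 and CLCF1, and 25.2% of all genes tested. Both edgeR (0.886% of genes called) and DESeq2 (13.1% called) called 1 of the 10, IL6, as lower.

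The proximal promoters of IL6 and IL11 are shown because these 2 cytokines had the largest differences of the family. They are RefSeq windows on GRCh38.p14, upstream of the RefSeq start and read along the strand of the gene. The IL6 window is at chr7:22726950-22727146 on the plus strand, stopped short of an annotated exon at its near end. The GENCODE span of IL6 begins further upstream, at 22725884, so this window does not lie before every annotated IL6 transcript. The IL11 window is at chr19:55370464-55370713 on the minus strand. Capitals mark matches to the motifs searched for.
IL6: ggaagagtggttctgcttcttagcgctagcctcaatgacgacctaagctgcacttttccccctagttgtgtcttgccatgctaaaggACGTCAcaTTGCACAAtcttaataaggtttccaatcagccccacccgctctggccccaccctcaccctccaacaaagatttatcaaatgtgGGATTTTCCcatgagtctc
IL11: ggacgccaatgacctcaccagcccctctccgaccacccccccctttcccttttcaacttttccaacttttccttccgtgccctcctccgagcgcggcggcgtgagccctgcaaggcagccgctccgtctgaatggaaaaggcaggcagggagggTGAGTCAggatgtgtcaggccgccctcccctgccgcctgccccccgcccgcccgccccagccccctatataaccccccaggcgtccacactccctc
The motifs were GGNNTTTCC (NF-kB), TGANTCA (AP-1), TGACGT (CRE), TTGCNNAA (C/EBP) and TTCNNNGAA (STAT), searched on both strands. The IL6 window holds a CRE match, here as its reverse complement, a C/EBP match 2 bases further on, and an NF-kB match nearest to the start. The IL11 window holds an AP-1 match. Over 35116 windows of 250 bases, the share with a match was 7.10% for CRE, 9.05% for C/EBP, 5.48% for NF-kB, 6.57% for AP-1 and 6.57% for STAT. Of the 10 genes 8 have a RefSeq window, with LIF and CLCF1 the ones without. LIFR windows held STAT and C/EBP matches, OSMR a C/EBP match, and the windows of IL6R, IL6ST, STAT3 and SOCS3 no match to these letters. The SOCS3 windows are chr17:78360926-78361175 and chr17:78359668-78359917. They leave out the bases just before the GENCODE start of SOCS3, at 78360077 on the minus strand, so those bases were not searched. All LIFR windows lie inside the GENCODE span of LIFR, so the bases before its outermost start were not searched either. A match describes the letters and was not tested as a binding site.

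IL6 (chromosome 7, 22725884 to 22732002, GRCh38, GENCODE 29) encodes the cytokine that names the family. It had 167, 185 and 243 reads in siLIX1L 1, 2 and 3, against 2261 and 805 reads in control 1 and 2. These are 11.2, 12.2 and 13.6 RPM in siLIX1L 1, 2 and 3 and 152 and 44.0 RPM in control 1 and 2. The siLIX1L libraries lay close together and all below both controls, while control 1 was 3.45 times control 2. The means were 12.4 ± 1.21 RPM in siLIX1L (SD, n = 3) and 98.0 ± 76.3 RPM in control libraries (SD, n = 2), and the control mean was 7.92 times the siLIX1L mean. The log2 fold change was -2.68 (SE 0.47, 95% interval -3.78 to -1.58) with a limma adjusted p of 0.0506. By edgeR the fold change was -2.97 with an adjusted p of 0.0466, and by DESeq2 the adjusted p was 2.1e-08. Without control 1 it was -1.79 (limma adjusted p = 0.0132) and without control 2 -3.57 (0.0203), whereas leaving out a siLIX1L library gave adjusted p-values of 0.104 to 0.230. Reads of STEAP1B and of an antisense gene that overlap IL6 cannot be told apart from its own, since no source used here gives the strandedness of the libraries.

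LIF (chromosome 22, 30240447 to 30246851), the cytokine leukemia inhibitory factor, was at 21.6, 20.5 and 29.5 RPM in siLIX1L 1, 2 and 3 and at 63.2 and 23.2 RPM in control 1 and 2. Control 1 stood alone at the top, and control 2 lay within the siLIX1L range. LIF had a log2 fold change of -0.69 (SE 0.41, 95% interval -1.66 to 0.27, limma adjusted p = 0.332), which was 0.02 without control 1 (adjusted p = 0.959) and -1.40 without control 2 (adjusted p = 0.0495).

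IL11 (chromosome 19, 55364389 to 55370463), a cytokine known as a fibroblast and stellate cell product, was at 9.96, 8.28 and 13.5 RPM in siLIX1L 1, 2 and 3 and at 38.9 and 12.1 RPM in control 1 and 2. The groups overlapped, again with control 1 apart from the other 4 libraries. IL11 had a log2 fold change of -1.03 (SE 0.47, 95% interval -2.15 to 0.08, limma adjusted p = 0.227). Without control 1 it was -0.21 (adjusted p = 0.644), and without control 2 it was -1.85 (adjusted p = 0.0466).

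CLCF1 (chromosome 11, 67364168 to 67374177) encodes a cytokine that acts through the CNTF receptor. It was at 15.1, 13.2 and 19.1 RPM in siLIX1L 1, 2 and 3 and at 32.5 and 20.1 RPM in control 1 and 2. The groups did not overlap, but siLIX1L 3 and control 2 were close. CLCF1 had a log2 fold change of -0.69 (SE 0.28, 95% interval -1.36 to -0.03, limma adjusted p = 0.186), and it ran from -1.03 to -0.35 when each library was left out in turn. Reads of overlapping genes are a limit for other members too, since the coding genes RAD9A and, on the same strand, AP003419.1 overlap CLCF1, RICTOR overlaps OSMR, and antisense genes overlap LIF, IL6R, IL6ST and LIFR.

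The 4 cytokines were all highest in control 1, which had 3.45 times the IL6, 2.72 times the LIF, 3.22 times the IL11 and 1.61 times the CLCF1 of control 2. Ratios between cytokines within a library do not depend on its total. The ratio of IL6 to LIF reads was 0.520, 0.597 and 0.462 in siLIX1L 1, 2 and 3, against 2.40 and 1.89 in control 1 and 2. IL6 to IL11 gave 1.13, 1.48 and 1.01 in siLIX1L 1, 2 and 3, against 3.91 and 3.64 in control 1 and 2. IL6 to CLCF1 gave 0.746, 0.925 and 0.715 in siLIX1L 1, 2 and 3, against 4.68 and 2.19 in control 1 and 2. Each of these 3 ratios was lower in every siLIX1L library than in either control. IL11 to LIF, a ratio without IL6, was 0.461, 0.403 and 0.458 in siLIX1L 1, 2 and 3 and 0.614 and 0.520 in control 1 and 2, and its groups did not overlap either. With 3 against 2 libraries the exact permutation test (two-sided) can give no p below 0.2, and each of these ratios had p = 0.2 (0.28 after Benjamini-Hochberg adjustment over 7 ratios).

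**Figure D1:**
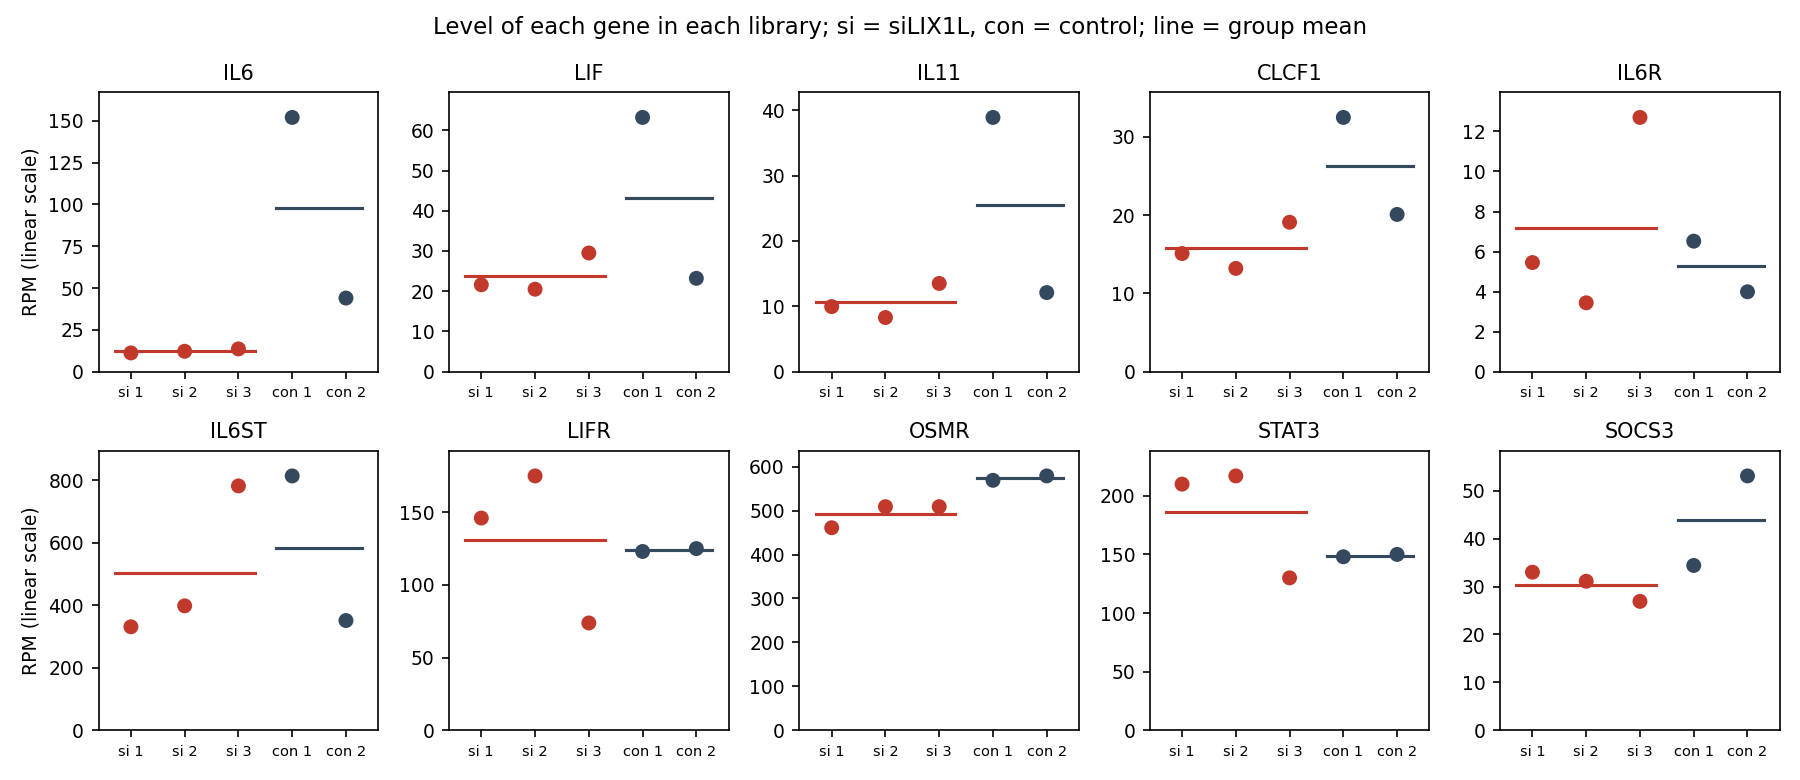
Level of each of the 10 genes in RPM (linear axis from 0, 1 panel per gene) in siLIX1L 1 to 3 (red points) and control 1 and 2 (dark points), with lines at the group means. IL6 lies at 11.2 to 13.6 RPM in siLIX1L and at 44.0 and 152 RPM in control libraries, and IL6ST, LIFR and STAT3 are spread widely within a group.

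Of the receptor chains, IL6R (chromosome 1, 154405193 to 154469450), which binds IL-6, was the lowest. It was at 5.45, 3.44 and 12.7 RPM in siLIX1L 1, 2 and 3 and at 6.52 and 3.99 RPM in control 1 and 2, so that siLIX1L 3 was the highest and the groups overlapped. Its log2 fold change was 0.27 (SE 0.51, 95% interval -0.93 to 1.47, limma adjusted p = 0.775).

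IL6ST (chromosome 5, 55935095 to 55994993), the gp130 gene, was at 331, 398 and 782 RPM in siLIX1L 1, 2 and 3 and at 814 and 351 RPM in control 1 and 2. SiLIX1L 3 and control 1 were high and the other 3 libraries low, so the split did not follow the siRNA. SiLIX1L 3 held 2.15 times the mean of siLIX1L 1 and 2, and control 1 held 2.32 times control 2. IL6ST had a log2 fold change of -0.19 (SE 0.46, 95% interval -1.27 to 0.89, limma adjusted p = 0.827).

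LIFR (chromosome 5, 38474963 to 38608354), the LIF receptor chain, was at 146, 175 and 73.8 RPM in siLIX1L 1, 2 and 3 and at 123 and 125 RPM in control 1 and 2. The controls were close, with siLIX1L 1 and 2 above them and siLIX1L 3 below them, at 0.461 times the mean of siLIX1L 1 and 2. Its fold change on the log2 scale was -0.01 (SE 0.35, 95% interval -0.84 to 0.83, limma adjusted p = 0.993).

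OSMR (chromosome 5, 38845858 to 38945596), the oncostatin M receptor chain, was at 461, 509 and 509 RPM in siLIX1L 1, 2 and 3 and at 569 and 579 RPM in control 1 and 2. All siLIX1L libraries lay below both controls, by a small margin and with little spread. OSMR had a log2 fold change of -0.22 (SE 0.17, 95% interval -0.63 to 0.19, limma adjusted p = 0.457). The ratio of IL6ST to OSMR reads was 0.717, 0.781 and 1.54 in siLIX1L 1, 2 and 3 and 1.43 and 0.605 in control 1 and 2 (exact permutation test, p = 0.8). LIFR to OSMR was 0.316, 0.343 and 0.145 in siLIX1L 1, 2 and 3 and 0.216 in both controls (exact permutation test, p = 0.8).

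STAT3 (chromosome 17, 42313324 to 42388568), the transcription factor of the pathway, was at 210, 217 and 130 RPM in siLIX1L 1, 2 and 3 and at 148 and 150 RPM in control 1 and 2. SiLIX1L 1 and 2 lay above the controls and siLIX1L 3 below them, at 0.612 times the mean of the other siLIX1L libraries. The log2 fold change was 0.28 (SE 0.26, 95% interval -0.32 to 0.88, limma adjusted p = 0.525). These are mRNA levels, and phosphorylated STAT3 was not measured.

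SOCS3 (chromosome 17, 78356778 to 78360077), which inhibits gp130 signalling and is itself induced by STAT3, was at 33.0, 31.1 and 26.9 RPM in siLIX1L 1, 2 and 3 and at 34.4 and 53.1 RPM in control 1 and 2. The groups did not overlap, but control 1 lay just above siLIX1L 1. The log2 fold change was -0.49 (SE 0.24, 95% interval -1.07 to 0.08, limma adjusted p = 0.254), at -0.80 without control 1 (adjusted p = 0.0377) and -0.18 without control 2 (adjusted p = 0.568). Control 1, the library with the most of every cytokine, was the lower of the controls in SOCS3. The ratio of SOCS3 to STAT3 reads was 0.157, 0.143 and 0.207 in siLIX1L 1, 2 and 3 and 0.233 and 0.354 in control 1 and 2, without overlap (exact permutation test, p = 0.2, the smallest possible).

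**Figure D2:**
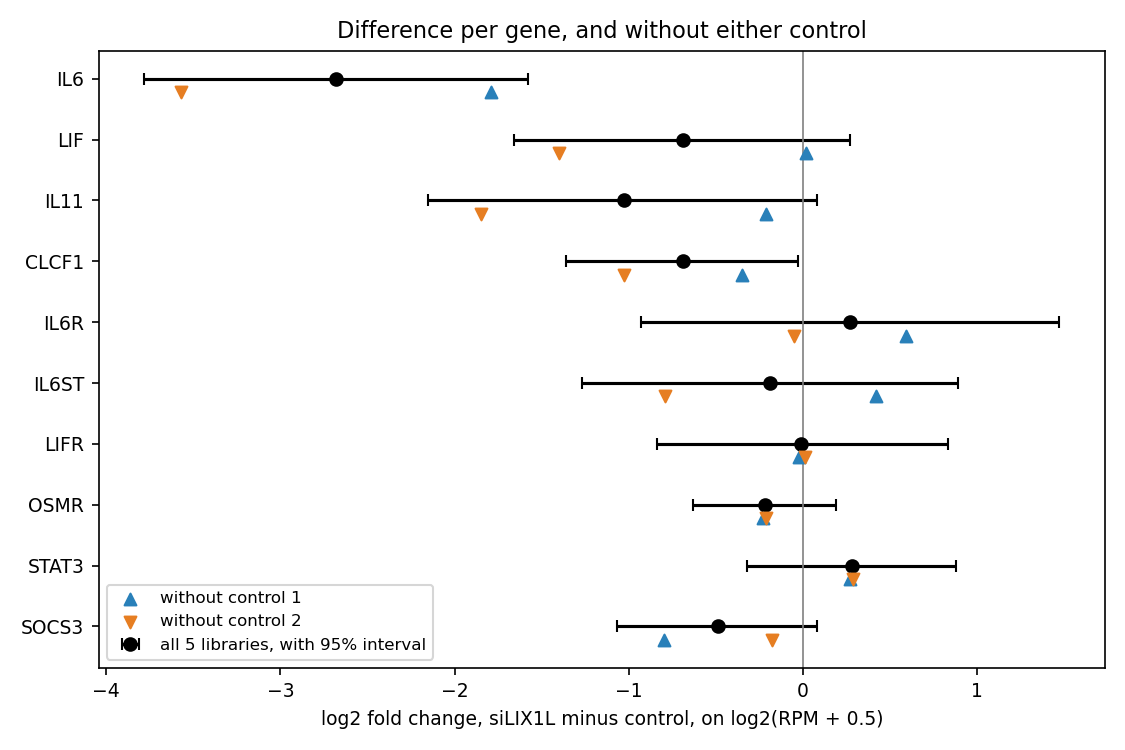
Log2 fold change of each gene, siLIX1L minus control, on log2(RPM + 0.5) with its 95% interval (black points and bars, all 5 libraries), and the same without control 1 or without control 2 (triangles). IL6 is at -2.68 and stays below 0 without either control, whereas LIF is at 0.02 and IL11 at -0.21 without control 1.

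Across the 10 genes, 8 fold changes were negative (50.7% of all genes), among them LIFR at only -0.01, with a median of -0.36 against -0.01 for all genes tested. By edgeR and DESeq2, 7 were negative. Without control 1, 6 were negative with a median of -0.11, and without control 2, 8 were negative with a median of -0.50. Groups did not overlap for 4 of the 10 (IL6, CLCF1, OSMR and SOCS3), all with siLIX1L lower, where 21.9% of all genes lay lower and 22.1% higher without overlap. Which other genes passed depended on the control left out. Without control 1, limma called 2 of the 10, IL6 and SOCS3, both lower, with 22.8% of all genes called. Without control 2 it called 3, IL6, LIF and IL11, all lower, with 3.95% of all genes called.

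**Figure D3:**
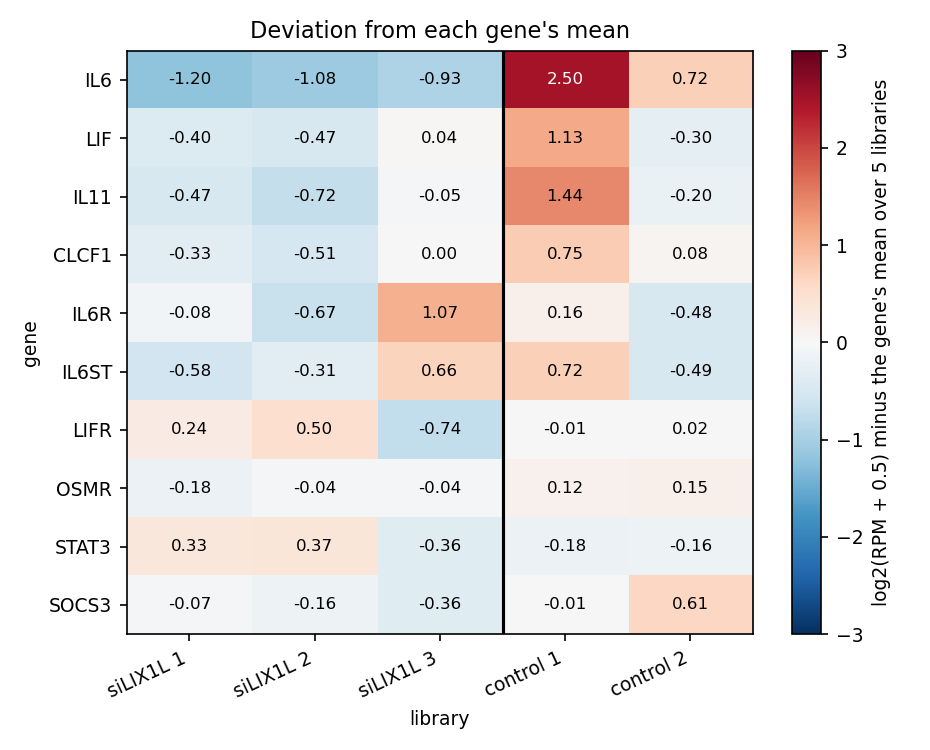
Deviation of each gene's log2(RPM + 0.5) from its own mean over the 5 libraries (colour and printed value), with siLIX1L libraries left of the black line and controls right of it. IL6 deviates by 2.50 in control 1 and 0.72 in control 2, LIF, IL11 and CLCF1 are highest in control 1, and IL6ST is high in siLIX1L 3 and control 1.

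Levels of different genes were compared as RPM per kb of the longest annotated transcript. In siLIX1L libraries OSMR was highest at 89.0 ± 4.99 RPM per kb (SD, n = 3), then IL6ST at 55.6 ± 26.9, STAT3 at 36.8 ± 9.50, LIFR at 13.0 ± 5.15, SOCS3 at 11.1 ± 1.13, CLCF1 at 8.57 ± 1.62, IL6 at 8.11 ± 0.79, LIF at 6.02 ± 1.24, IL11 at 4.64 ± 1.18 and IL6R at 1.22 ± 0.822. In control libraries the order was OSMR at 104 ± 1.28 RPM per kb (SD, n = 2), IL6ST at 64.3 ± 36.2, IL6 at 64.2 ± 50, STAT3 at 29.5 ± 0.325, SOCS3 at 16.0 ± 4.84, CLCF1 at 14.3 ± 4.74, LIFR at 12.3 ± 0.153, IL11 at 11.2 ± 8.30, LIF at 10.9 ± 7.13 and IL6R at 0.889 ± 0.302. The control mean of IL6 joins 99.5 RPM per kb in control 1, above IL6ST at 89.8, and 28.8 in control 2, below IL6ST at 38.7 and STAT3 at 29.7, so its rank differed between the controls. Neighbours in the siLIX1L order overlapped within their SD from IL6ST to STAT3, from LIFR through SOCS3 and CLCF1 to IL6, and from LIF to IL11. In the control order they overlapped from IL6ST through IL6 to STAT3 and from SOCS3 to LIF.

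The nearest patterns to IL6 were measured as the root mean square distance of centred log2(RPM + 0.5) over 5 libraries, among 10672 genes with a mean of at least 5 RPM. They were the stress cytokine gene GDF15 at a distance of 0.16, the chemokine genes CXCL2 at 0.34 and CXCL8 at 0.42, the cytokine gene IL1B at 0.45 and the phosphatase gene DUSP15 at 0.46. CXCL2 has near-identical paralogs, between which reads may be divided. Within the family the nearest were IL11 at 0.83, LIF at 0.99 and CLCF1 at 1.04. The nearest to SOCS3 were PTGER2, a prostaglandin receptor gene, at 0.03, PRCP, CHID1 and IDH3G at 0.04 and the ribosomal protein gene RPS19 at 0.05.

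Other ligands of the family were scarce. Oncostatin M (OSM), the ligand of OSMR, had 0, 0 and 2 reads in siLIX1L 1, 2 and 3 and 0 in both controls, where a count of 0 allows up to 3 reads. It is named here after its values were seen. Of 7 other ligand genes 3 were tested and 0 passed in limma, edgeR or DESeq2, with 1 (EBI3) at an unadjusted limma p under 0.05. EBI3, a subunit shared by IL-27 and IL-35, had 4, 2 and 9 reads in siLIX1L 1, 2 and 3 and 21 and 11 reads in control 1 and 2, and reached the minimum of the test through the controls only, so its p supports nothing. CNTF, ciliary neurotrophic factor, was at 1.88, 1.79 and 1.07 RPM in siLIX1L 1, 2 and 3 and 0.874 and 0.765 RPM in control 1 and 2 (log2 fold change 0.63, limma adjusted p = 0.245).

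Of 9 other receptor genes 6 were tested and 0 passed in limma, edgeR or DESeq2, with 1 at an unadjusted limma p under 0.05 and a median log2 fold change of 0.11. IL11RA, the IL-11 receptor chain, was at 2.76, 2.45 and 2.64 RPM in siLIX1L 1, 2 and 3 and 3.43 and 8.69 RPM in control 1 and 2. Both controls lay above the siLIX1L libraries, control 2 by more, with a log2 fold change of -0.95 (SE 0.39, limma adjusted p = 0.185). IL27RA, the IL-27 receptor chain, was at 5.12, 4.24 and 5.89 RPM in siLIX1L 1, 2 and 3 and 5.38 and 10.9 RPM in control 1 and 2 (-0.56, adjusted p = 0.346).

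Genes that relay or restrain the signal had more fold changes above 0 than below it with all 5 libraries, and none passed in limma or edgeR. Over all genes tested, 6450 fold changes were positive and 6646 negative. At an unadjusted limma p under 0.05 were 4 of 9 kinases and STATs, 4 of 16 inhibitors and phosphatases and 3 of 10 adaptors and sheddases, against 25.2% of all genes. DESeq2 called 2, 3 and 1 of these lists higher, in that order, and 0 lower. Of all 13096 genes tested, DESeq2 called 847 higher and 864 lower. Among 9 tested Janus kinases and other STATs the fold change was positive in 7, the median was 0.46, and 4 were higher and 1 lower without overlap, where the shares of all genes were 22.1% higher and 21.9% lower. JAK1, a kinase that binds gp130, was at 344, 380 and 314 RPM in siLIX1L 1, 2 and 3 and 248 and 196 RPM in control 1 and 2 (log2 fold change 0.65, SE 0.20, limma adjusted p = 0.111), with every siLIX1L library above both controls.

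Of 16 tested inhibitors and phosphatases 10 had positive fold changes, 4 (25%) were higher without overlap, near the 22.1% of all genes, and 1 was lower, with a median of 0.15. Without control 1, 10 were positive and 6 negative, with a median of 0.37. Without control 2, 7 were positive and 9 negative, with a median of -0.03, so the direction of this list depended on the control left out. PTPN1, a phosphatase of Janus kinases, was at 217, 223 and 201 RPM in siLIX1L 1, 2 and 3 and 147 and 112 RPM in control 1 and 2 (log2 fold change 0.73, limma adjusted p = 0.0881). SOCS5, a relative of SOCS3, was at 108, 110 and 94.6 RPM in siLIX1L 1, 2 and 3 and 59.1 and 70.8 RPM in control 1 and 2 (0.68, adjusted p = 0.0935). Of 10 adaptors and sheddases 7 had positive fold changes, 5 were higher without overlap (22.1% of all genes) and 1 lower (21.9%), with a median of 0.25. SOS1, which links receptors to Ras, was at 56.3, 71.8 and 55.1 RPM in siLIX1L 1, 2 and 3 and 37.6 and 35.7 RPM in control 1 and 2 (0.72, adjusted p = 0.0959). ADAM17, a protease that releases soluble IL-6 receptor, was at 40.7, 49.8 and 48.5 RPM in siLIX1L 1, 2 and 3 and 35.1 and 20.9 RPM in control 1 and 2 (0.76, adjusted p = 0.138).

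Known STAT3 target genes mostly had lower levels in siLIX1L libraries, but limma called 1 lower and 1 higher of 33 tested, as did edgeR. DESeq2 called 12 lower and 1 higher. Of all genes tested, limma called 0.916%, edgeR 0.886% and DESeq2 13.1%, in either direction. The fold change was negative in 28 of the 33 (50.7% of all genes), with a median of -0.67, and 16 were lower and 2 higher without overlap, where 21.9% of all genes were lower and 22.1% higher. The negative count was 25 without control 1 and 27 without control 2. PIM1, a survival kinase, was at 48.5, 43.2 and 39.4 RPM in siLIX1L 1, 2 and 3 and 146 and 137 RPM in control 1 and 2. It fell in siLIX1L libraries, with tight groups far apart and a log2 fold change of -1.69 (SE 0.19, limma adjusted p = 0.0350). CCND1, the cell cycle gene cyclin D1, was at 997, 1046 and 892 RPM in siLIX1L 1, 2 and 3 and 323 and 148 RPM in control 1 and 2. It rose in siLIX1L libraries, unlike the 28 with negative fold changes, with a mean 4.16 times that of controls and a log2 fold change of 2.16 (SE 0.32, limma adjusted p = 0.0421). JUNB, an AP-1 subunit gene named here after its values were seen, was at 20.9, 20.1 and 19.0 RPM in siLIX1L 1, 2 and 3 and 57.9 and 273 RPM in control 1 and 2 (log2 fold change -2.62, limma adjusted p = 0.0645). For JUNB it was -3.74 without control 1 (adjusted p = 0.0128) and -1.51 without control 2 (0.0327). No gene at all passed when a siLIX1L library was left out, with limma adjusted p-values of 0.0899 to 0.191 for PIM1 and 0.0929 to 0.230 for CCND1. Many of these genes are also induced by other factors, and STAT3 activity was not measured.

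Acute phase genes, the hepatocyte targets of IL-6, were mostly at or near 0 reads in this line. Of 19 genes 3 were tested, 0 passed in limma, edgeR or DESeq2, 1 had an unadjusted limma p under 0.05 and all 3 had negative fold changes, with a median of -0.79. Complement C3 was at 33.4, 36.9 and 50.2 RPM in siLIX1L 1, 2 and 3 and 50.4 and 108 RPM in control 1 and 2 (log2 fold change -0.89, limma adjusted p = 0.170). SERPINA1, the alpha-1 antitrypsin gene, was at 2.69, 1.52 and 3.26 RPM in siLIX1L 1, 2 and 3 and 3.16 and 6.34 RPM in control 1 and 2 (-0.79, adjusted p = 0.263). Among genes named above, the log2 fold changes without control 1 were -1.56 for IL11RA, -1.04 for IL27RA, -1.44 for C3 and -1.24 for SERPINA1. They were 0.69 for CNTF, 0.82 for JAK1, 0.93 for PTPN1, 0.55 for SOCS5, 0.75 for SOS1 and 1.13 for ADAM17. Without control 2, IL11RA, IL27RA and C3 were at -0.34, -0.08 and -0.35, and JAK1, PTPN1 and ADAM17 at 0.48, 0.53 and 0.39. These values do not cover the genes of the lists that are not named.

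**Figure D4:**
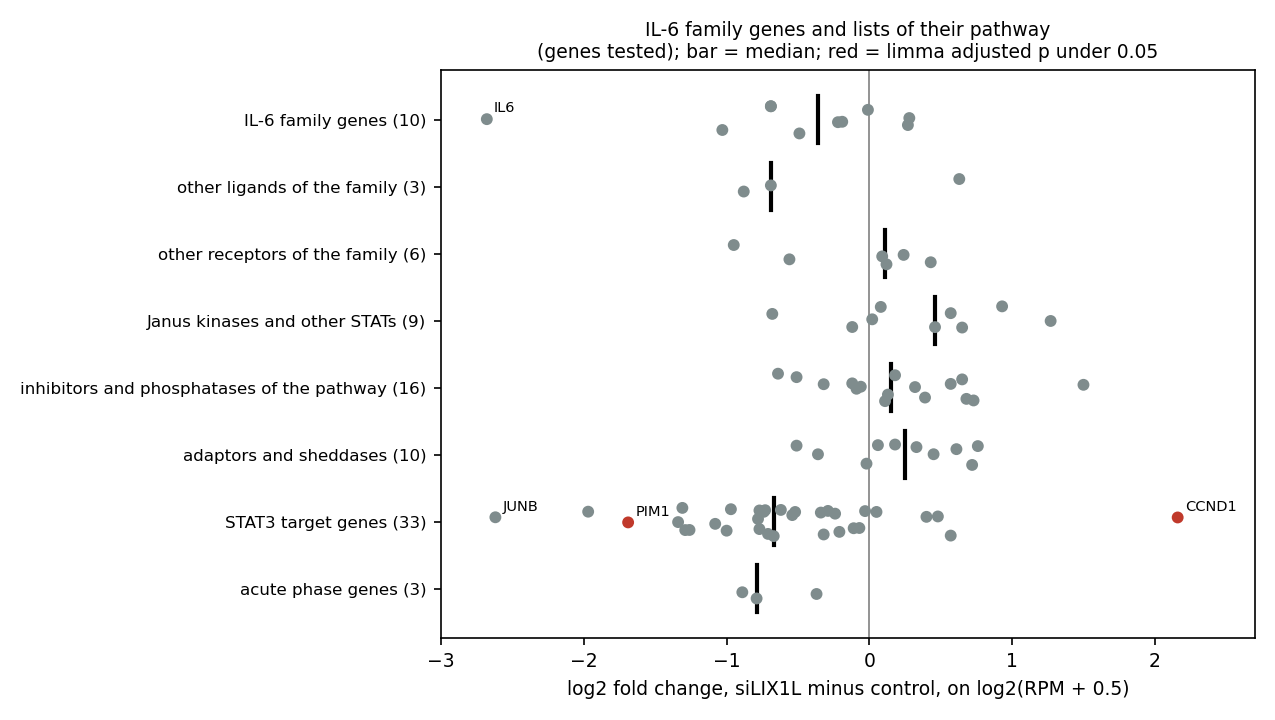
Log2 fold change, siLIX1L minus control on log2(RPM + 0.5), of each tested gene of the family and of 7 pathway lists (points, with the number tested in brackets), with a bar at each median. Of the STAT3 target genes 28 of 33 lie below 0, and PIM1 and CCND1 (red) are the genes past the limma threshold.

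The mitochondrial share and the myeloid and cholangiocyte marker sums also differed between the groups, whereas the endothelial, hepatocyte and lymphocyte sums overlapped. The share of reads from mitochondrially encoded genes was 1.08, 1.29 and 1.14% in siLIX1L 1, 2 and 3 and 2.24 and 3.35% in control 1 and 2. The myeloid markers, of cells that also make IL-6, had 3 of 8 above the minimum and summed to 5.78 to 9.53 RPM in siLIX1L and to 11.2 and 37.8 RPM in control libraries. Most of this was CD14, at 6.53, 7.81 and 4.72 RPM in siLIX1L 1, 2 and 3 and 8.81 and 35.7 RPM in control 1 and 2, and TYROBP was at 0 reads in all 5 libraries. Control 2 had the higher myeloid sum and control 1 the higher IL6. The cholangiocyte markers, 2 of 4 above the minimum, summed to 53.9 to 105 RPM in siLIX1L and to 31.4 and 46.4 RPM in control libraries. SOX9 made nearly all of this sum, while KRT7, KRT19 and EPCAM had lower means in siLIX1L than in control libraries. Endothelial markers summed to 3.23 to 5.30 RPM in siLIX1L and 3.61 and 5.58 RPM in control libraries, with 2 of 5 above the minimum. Hepatocyte markers, 1 of 7 above it, summed to 0.471 to 1.12 RPM in siLIX1L and 1.01 and 1.09 RPM in control libraries. Lymphocyte markers, 0 of 5 above it, summed to 0 to 0.0673 RPM in siLIX1L and to at most 0.164 RPM in control libraries. The part of these measurements in the results was not tested, and fewer cells making a transcript cannot be told apart from less of it per cell.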

How the data were processed

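RNA of 5 LX-2 libraries was grouped by the siRNA named in the labels. The authors deposited FPKM for 19936 genes per library and, for siLIX1L 3, also a raw read count and a gene length, per the file headers. Bowtie 0.12.2 and mm8 stand in the submitters' processing notes, but mm8 is a mouse build and the IDs are human, so build, counting and strandedness are uncertain. The lengths equal gene spans with introns in GENCODE 29 for 19567 of 19926 genes (98.2%). The value of 1 read was fitted in each library, first from its low genes and then with higher genes included. FPKM multiplied by length and divided by this value came out whole within 0.01 reads for 100% of values. The sum of the recovered reads gave the total. These reads equalled the deposited counts of siLIX1L 3. SiLIX1L 1 and 2 differed by a chi-square per gene of 5.59, against 55.4 to 165 for other pairs, and were kept as 2 replicates.

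The main test was limma 3.58.1 in R 4.3.3 (moderated by robust eBayes with a trend, two-sided, adjusted after Benjamini-Hochberg with a threshold of 0.05) on log2(RPM + 0.5), with no covariates, for 13096 genes with at least 10 reads in at least 2 libraries. All 10 family genes were tested. It called 57 genes higher and 63 lower. EdgeR 4.0.16 (quasi-likelihood) and DESeq2 1.42.0 on the recovered reads, and the other settings given in the closing section, were alternatives. Ratios within a library were compared by exact permutation.

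The members and pathway lists were chosen with earlier results of these data known, as was the rule for named genes. It takes the 10 genes, LIX1L and CCL20, from each list the called genes (4 at most, by smallest p) or else values of the 2 genes of smallest p, and the 5 genes nearest to IL6 and to SOCS3. A result on a gene that this rule takes is not reported here. Counting error alone limits a count of 0 to 3 reads.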

Additional observations from a re-analysis of the deposited data

How the results depend on the processing

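Of the 10 genes, IL6 kept a negative fold change under all 16 settings tried and passed the threshold in 6 of them, those being DESeq2, TMM scaling, edgeR, the replicate block and the fits without either control, in which the spread comes from the siLIX1L libraries alone. The genes past the threshold, 120 with limma, numbered 1711 with DESeq2, 220 with TMM scaling, 183 with a pseudocount of 2, 77 with quantile normalization, 645 with the replicate block, 0 with no minimum (3647 at an unadjusted p under 0.05), 0 with siLIX1L 1 and 2 averaged (1869 unadjusted) and 0 to 2949 when each library was left out. The highest of these was without control 1, 510 came without control 2, and 0 without any siLIX1L library (1718 to 3154 unadjusted). Of the 10 family genes, 1 passed with each of DESeq2, TMM scaling, edgeR and the replicate block, and 0 to 3 when each library was left out. The log2 fold change changed sign for LIF (-1.40 to 0.02 when each library was left out), IL6ST (-0.79 to 0.42), IL6R (-0.21 to 0.66, and -0.21 with the replicate block) and LIFR (-0.26 to 0.36, with 0.07 by DESeq2, 0.07 by edgeR, 0.02 on FPKM and 0.36 with the replicate block). The replicate block uses the number in the titles and gives siLIX1L 3, which has no control of its number, no weight. On FPKM, IL6R lay below the minimum level and gave no value. Deviations correlated at -0.11 between siLIX1L 1 and control 1 and at -0.09 between siLIX1L 2 and control 2. The 2 controls deviate as mirror images of each other, so these values are weak evidence on pairing and do not exclude it. The numbers in the titles were not taken as pairs in the main test. The cause of these changes was not tested.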
